A study of Homo sapiens with 4 samples.

Results

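The genes described here encode the integrins, cadherins, claudins and keratins, together with 6 single genes that mark or steer the passage between epithelial and mesenchymal states. They were chosen by symbol alone: numbered or single-lettered integrin alpha subunits (ITGA), numbered integrin beta subunits (ITGB), numbered cadherins (CDH) and claudins (CLDN), all keratins (KRT), and CD44, VIM, SNAI1, SNAI2, TGFBI and OVOL2. This found 136 probes of 123 genes, among 17397 probes with a gene symbol (15240 genes) and 30968 probes in all. There were 18 probes of 17 integrin alpha subunits, 10 probes of 8 integrin beta subunits, 26 probes of 23 cadherins, 22 probes of 18 claudins, 54 probes of 51 keratins and 1 probe for each of the 6 single genes.

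The cells were H1299, a line of human non-small cell lung cancer, stably transfected with a vector in which a promoter of Oct4 or of nestin drives green fluorescent protein (GFP). There were 4 populations, the GFP (+) cells of each reporter line, Oct4/GFP (+) and Nestin/GFP (+), and their GFP (-) counterparts, Oct4/GFP (-) and Nestin/GFP (-), and the RNA of each, taken after 24 h in medium with 5% fetal bovine serum, was labeled with Cy3 and measured on 1 array. The transfected cells were selected with neomycin, and the GFP (+) cells were sorted for high GFP. The labels call the GFP (-) cells negative for the reporter vector. Elsewhere in the study, GFP (-) cells were sorted from GFP (+) cells that had lost their fluorescence over weeks in culture, but the array methods do not say whether the GFP (-) cells hybridized arose in this way. The fluorescence reports the activity of a cloned promoter, not the level of Oct4 or nestin itself, and the nestin probe (NES) was above background on none of the 4 arrays. By quantitative RT-PCR, the study found Oct4 higher in GFP (+) than in GFP (-) cells of the Oct4 reporter. It likewise found nestin higher in GFP (+) cells of the nestin reporter, also against Oct4/GFP cells. A probe below background here thus does not show that its gene is silent.

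Integrins are pairs of an alpha and a beta subunit that bind matrix proteins outside the cell and link them to the actin cytoskeleton inside it. Cadherins join neighboring cells at adherens junctions, claudins seal the space between them at tight junctions, and keratins are the intermediate filaments of epithelial cells. In epithelial-mesenchymal transition, carcinoma cells lose E-cadherin and keratins and gain vimentin and N-cadherin, a change that transcription factors of the Snail family promote and OVOL2 opposes.

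Intensities are linear, background-subtracted values as the authors deposited them, and much of each array lay near background. A probe was called above background where its intensity passed 3 noise SD, the noise SD being estimated from the values below 0. The limit was an intensity of 15.3 in Oct4/GFP (+), 22.7 in Nestin/GFP (+), 13.9 in Oct4/GFP (-) and 20.3 in Nestin/GFP (-). Folds and log2 differences come from intensities normalized over all 4 arrays by quantiles, and a gene above background on only one of the arrays compared has a bound, given as "at least". With 1 array per population there is no replicate check, no test was made and no p-value is given. The only spread within these data is that between probes of the same gene, whose log2 differences had an SD of 0.93 for Oct4/GFP (+) over Nestin/GFP (+) (276 genes), 0.85 for Oct4/GFP (+) over Oct4/GFP (-) (180 genes), 0.54 for Nestin/GFP (+) over Nestin/GFP (-) (361 genes) and 0.74 for Oct4/GFP (-) over Nestin/GFP (-) (203 genes). A 2-fold difference is therefore close to what probes of one gene disagree by, apart from the pair of Nestin/GFP arrays. Less RNA per cell and fewer cells of a kind cannot be told apart in such populations. Probes over 8-fold away from the average of the other 3 arrays numbered 129 in Oct4/GFP (+), against 3 in Nestin/GFP (+), 10 in Oct4/GFP (-) and 3 in Nestin/GFP (-).

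Most of these genes were not seen. Of the 136 probes, 36 (26.5%) were above background in Oct4/GFP (+), 23 (16.9%) in Nestin/GFP (+), 24 (17.6%) in Oct4/GFP (-) and 32 (23.5%) in Nestin/GFP (-), against 33.3%, 33.8%, 24.2% and 36.0% of all probes with a symbol on the same arrays. In all, 48 probes of 46 genes were above background on at least 1 array, or 35.3% of the probes against 48.3% of all probes with a symbol. On all 4 arrays there were 16 probes of 15 genes, or 11.8% against 17.1%. The other 88 probes, which leave 77 genes with none above background, held intensities from -20 to 21.

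The families differed in how much of them was seen. The integrin beta subunits had 7 of 10 probes above background on at least 1 array (70%), the integrin alpha subunits 8 of 18 (44.4%), the claudins 8 of 22 (36.4%), the keratins 14 of 54 (25.9%) and the cadherins 6 of 26 (23.1%). Of the single genes, all but SNAI2, the Snail family repressor Slug, were above background on at least 1 array. E-cadherin (CDH1), the adherens junction protein of epithelia, was not among them: its intensities were 2 in Oct4/GFP (+), 5 in Nestin/GFP (+), -9 in Oct4/GFP (-) and 4 in Nestin/GFP (-). KRT19, a keratin of simple epithelia, likewise had 2 in Oct4/GFP (+), -6 in Nestin/GFP (+), 1 in Oct4/GFP (-) and 9 in Nestin/GFP (-). KRT8, KRT18 and KRT17 have no probe named here, and neither do KRT6C and 6 claudins. Of the 5 markers listed for an epithelial lung line, only CDH1 and KRT19 could be read, and both were below background on every array. Of the 3 mesenchymal markers, vimentin (VIM) and N-cadherin (CDH2) were above background on every array and fibronectin (FN1) on none. None of the 3 leukocyte markers with a probe was above background. Of 6 fibroblast markers 4 passed the limit on at least 1 array, at no more than 41, and of 3 endothelial markers 1 did, at 19. Of 5 alveolar or airway markers, SFTPB and FOXJ1 were above background on every array, at up to 135. SFTPC, NKX2-1 and SCGB1A1 were above it on none. Their part in the results was not tested.

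**Figure D1:**
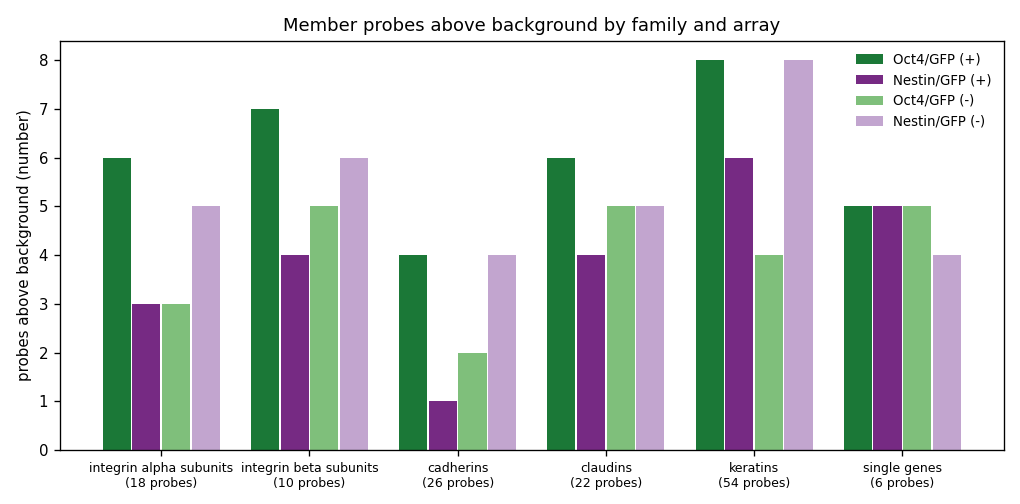
Number of probes above background (vertical axis) in each family (horizontal axis, with the number of probes on the array), 1 bar per population from Oct4/GFP (+) to Nestin/GFP (-). The keratins, with 54 probes, have 8, 6, 4 and 8 above background, and the integrin beta subunits, with 10 probes, have 7, 4, 5 and 6.

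The genes that could be compared were then counted past 2-fold. Between the GFP (+) populations, Oct4/GFP (+) over Nestin/GFP (+), 8 of 35 genes were higher (22.9%) and 4 were lower (11.4%), where 13.3% of 6466 named genes were higher and 16.1% were lower. Their median log2 difference was 0.35, against -0.01 over all named genes. For Oct4/GFP (+) over Oct4/GFP (-), 1 of 28 was higher and 8 were lower (28.6%), where 10.6% of 4957 named genes were higher and 19.5% lower, with medians of 0.04 and 0.02. For Nestin/GFP (+) over Nestin/GFP (-), 0 of 28 were higher and 3 were lower (10.7%), where 7.4% of 6193 named genes were higher and 5.81% lower, with medians of -0.24 and 0.04. For Oct4/GFP (-) over Nestin/GFP (-), 7 of 25 were higher (28%) and 1 was lower, where 21.2% of 4999 named genes were higher and 12.4% lower, with medians of -0.10 and 0.03. Each array enters 2 of these comparisons, so they are not independent of each other. Many of the counted genes have bounds only. A bound starts from a floor, the smallest normalized value passing the limit, which was 30.5 for Oct4/GFP (-) and at most 18.5 elsewhere. A gene barely past the limit in Oct4/GFP (-), and below it on the compared array, thus already has a bound above 0. In the other direction, the value must first exceed 30.5. CLDN5, CLDN8, ITGA4, KRT82 and SNAI1, counted as higher over Nestin/GFP (-), have bounds of the first kind. What part the floors have in these counts was not tested. Among genes above background on both arrays, 4 were higher and 4 lower of 19 for Oct4/GFP (+) over Nestin/GFP (+), where 12.3% of 4126 named genes were higher and 11.5% lower. The counts were 1 and 5 of 20 for Oct4/GFP (+) over Oct4/GFP (-) (7.70% and 13.5% of 3207 named genes), 0 and 1 of 17 for Nestin/GFP (+) over Nestin/GFP (-) (5.93% and 4.92% of 4655), and 2 and 1 of 18 for Oct4/GFP (-) over Nestin/GFP (-) (16.6% and 9.63% of 3364).

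The direction of these counts depended on how the arrays were scaled. Their brightness differed, and the 95th percentile of intensity was 107 in Oct4/GFP (+), 273 in Nestin/GFP (+), 55 in Oct4/GFP (-) and 205 in Nestin/GFP (-). On values as deposited, 1 of 29 was higher and 10 were lower (34.5%) for Oct4/GFP (+) over Nestin/GFP (+), where 2.66% of all named genes were higher and 47.0% lower. For Oct4/GFP (+) over Oct4/GFP (-), 12 of 37 were higher (32.4%) and 1 lower, against 40.6% and 2.38% of all named genes. For Nestin/GFP (+) over Nestin/GFP (-), 1 of 28 was higher and 4 were lower (14.3%), against 13.4% and 4.95%. For Oct4/GFP (-) over Nestin/GFP (-), 0 of 32 were higher and 18 lower (56.3%), against 0.218% and 70.3%. After median centring of each array, the counts in that order were 0 and 6 of 29 (0.902% higher and 35.3% lower over all named genes), 4 and 1 of 33 (15.6% and 1.77%), 2 and 2 of 27 (12.2% and 1.78%), and 0 and 13 of 31 (0.256% and 36.4%). All named genes moved with them: their median log2 difference was -0.95, 0.84, 0.25 and -1.51 on deposited values, and -0.70, 0.35, 0.34 and -0.68 after median centring. Set against the median of all named genes, the median of these genes for Oct4/GFP (+) over Nestin/GFP (+) was higher by 0.35 after quantile normalization, 0.42 as deposited and 0.34 after median centring. For Nestin/GFP (+) over Nestin/GFP (-) this difference was -0.27, -0.26 and -0.21 in the same order. For Oct4/GFP (-) over Nestin/GFP (-) it was -0.12, 0.21 and 0.06, so its sign was not kept. Of 32 gene differences past 2-fold, 9 stayed past it under all 3 other scalings tried, the third of which centred each array on those probes that pass the limit everywhere. They are named as such below. As deposited and after median centring, all named genes shifted lower for Oct4/GFP (+) over Nestin/GFP (+) and for Oct4/GFP (-) over Nestin/GFP (-). In the other comparisons they shifted higher. A difference in the direction of the shift was thus more easily kept than one against it. For Oct4/GFP (+) over Nestin/GFP (+), all 4 lower genes were kept and none of the 8 higher ones.

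**Figure D2:**
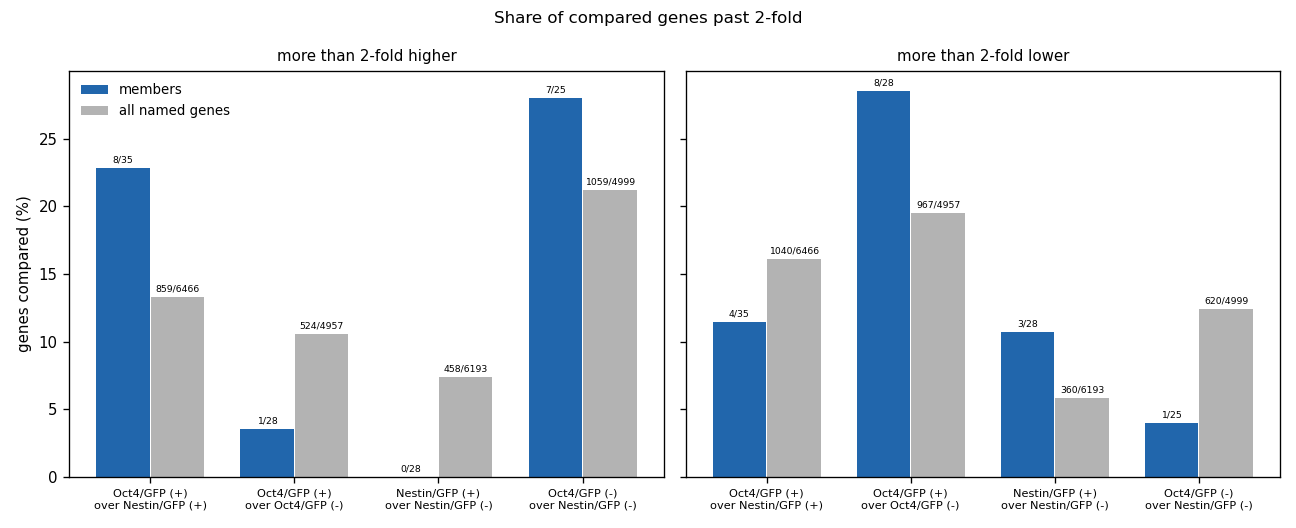
Share of compared genes (vertical axis, percent) more than 2-fold higher (left panel) and lower (right panel) in each comparison, for the adhesion, keratin and epithelial-mesenchymal genes (members) and all named genes, with the counts above the bars. The members reach 28.6% lower for Oct4/GFP (+) over Oct4/GFP (-) and 28% higher for Oct4/GFP (-) over Nestin/GFP (-), and both comparisons rest on the dimmest array, Oct4/GFP (-).

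CD44, the hyaluronan receptor that many carcinoma cells carry and that is often used to isolate tumor-initiating cells, had the widest range. Its intensities were 21 in Oct4/GFP (+), 682 in Nestin/GFP (+), 83 in Oct4/GFP (-) and 352 in Nestin/GFP (-). The Oct4/GFP (+) array was thus the low one, at 21 just above its limit of 15.3, and the other 3 were well above theirs. After normalization CD44 was 16.7-fold lower on Oct4/GFP (+) than on Nestin/GFP (+) (log2 -4.06) and 11.02-fold lower on Oct4/GFP (+) than on Oct4/GFP (-) (log2 -3.46). Between the other populations it differed little, with log2 0.50 for Nestin/GFP (+) over Nestin/GFP (-) and -0.10 for Oct4/GFP (-) over Nestin/GFP (-). Both differences past 2-fold stayed so under all 3 other scalings. CD44 has 1 probe, and it is the only one of the 136 that lay over 8-fold away from the other arrays' average on a single array. What part the spots of that array have in the value was not tested. By flow cytometry, the study found CD44 on nearly all H1299 cells. That is a measure of protein, while the array reads RNA, and the study does not give it for the sorted populations.

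VIM encodes vimentin, the intermediate filament of mesenchymal cells. Its intensities were 267 in Oct4/GFP (+), 1518 in Nestin/GFP (+), 140 in Oct4/GFP (-) and 772 in Nestin/GFP (-), far above the limit in every population. Vimentin was 2.31-fold lower on Oct4/GFP (+) than on Nestin/GFP (+) (log2 -1.21), and this stayed past 2-fold under all 3 other scalings. Its other log2 differences were -0.20 for Oct4/GFP (+) over Oct4/GFP (-), 0.55 for Nestin/GFP (+) over Nestin/GFP (-) and -0.46 for Oct4/GFP (-) over Nestin/GFP (-), none of them past 2-fold.

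OVOL2 is a zinc finger repressor that holds cells in an epithelial state, and its intensities were 87 in Oct4/GFP (+), 61 in Nestin/GFP (+), 21 in Oct4/GFP (-) and 62 in Nestin/GFP (-). It was highest in Oct4/GFP (+) after normalization, 3.14-fold higher than in Nestin/GFP (+) (log2 1.65) and 2.29-fold higher than in Oct4/GFP (-) (log2 1.19). The difference from Oct4/GFP (-) stayed past 2-fold under all 3 other scalings, whereas that from Nestin/GFP (+) dropped to log2 0.51 as deposited and 0.42 after median centring. The Nestin/GFP populations differed by log2 -0.21.

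SNAI1, the Snail repressor of E-cadherin, was dim, with intensities of 38 in Oct4/GFP (+), 29 in Nestin/GFP (+), 27 in Oct4/GFP (-) and 6 in Nestin/GFP (-). Only Nestin/GFP (-) was below background. SNAI1 was 2.21-fold higher on Oct4/GFP (+) than on Nestin/GFP (+) (log2 1.14), which was under 2-fold as deposited (0.39) and after median centring (0.26). It was at least 4.46-fold higher on Oct4/GFP (-) than on Nestin/GFP (-), a difference of 0.36 as deposited and 0.54 after median centring. SNAI2 stayed below background on all 4 arrays.

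TGFBI, a secreted matrix protein that transforming growth factor beta induces and that binds integrins, showed 72 in Oct4/GFP (+), 57 in Nestin/GFP (+), 29 in Oct4/GFP (-) and 163 in Nestin/GFP (-). The Nestin/GFP (-) array was the highest as deposited and also after normalization (log2 7.01), where Oct4/GFP (+) came next (log2 6.65). The lowest array was Oct4/GFP (-) as deposited and Nestin/GFP (+) after normalization. TGFBI was 3.34-fold lower on Nestin/GFP (+) than on Nestin/GFP (-) (log2 -1.74), and this stayed past 2-fold under all 3 other scalings. It was 2.61-fold higher on Oct4/GFP (+) than on Nestin/GFP (+) (log2 1.38), which dropped to 0.34 as deposited and 0.27 after median centring. For Oct4/GFP (+) over Oct4/GFP (-) the log2 difference was 0.36, and for Oct4/GFP (-) over Nestin/GFP (-) it was -0.72.

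**Figure D3:**
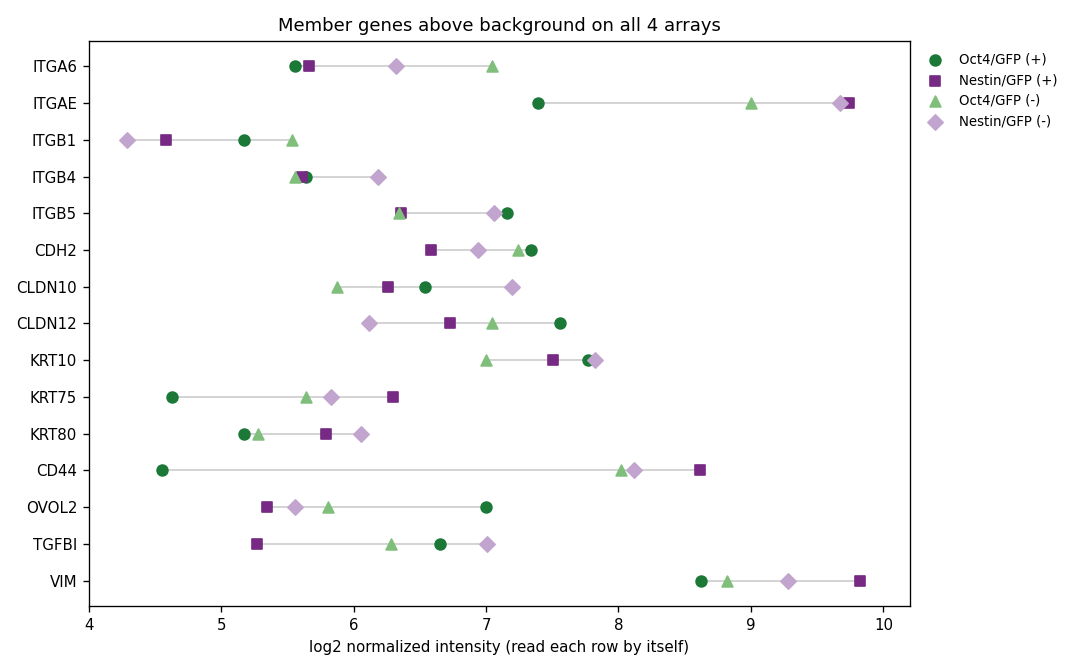
log2 normalized intensity (horizontal axis) of the 15 genes that pass the limit on every array, 1 row per gene and 1 symbol per population, with a line over each gene's range. CD44 spans 16.7-fold, with Oct4/GFP (+) apart from the other 3 arrays, ITGAE spans 5.10-fold and ITGB4, a mean of 2 probes that includes floors, 1.55-fold. Levels of different genes come from different probes and are not comparable.

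The promoters of the 4 genes lower on Oct4/GFP (+) than on Nestin/GFP (+), which are CD44, VIM, ITGAE and KRT75, are shown because in this comparison theirs are the differences that held under every scaling, a check that favored lower differences here, and that of ITGB6 because it had the largest difference in the other direction and the only E-box among the 5. Each is 250 bases before the RefSeq transcription start in GRCh38.p14, 5′ to 3′ on the strand of the gene: CD44 at chr11:35138921-35139170 on the plus strand, VIM at chr10:17227991-17228240 on the plus strand, ITGAE at chr17:3801189-3801438 on the minus strand, KRT75 at chr12:52434372-52434621 on the minus strand and ITGB6 at chr2:160200273-160200522 on the minus strand. Capitals mark GC boxes (GGGCGG or CCGCCC, the core that Sp1 binds) and E-boxes (CAGGTG or CACCTG, the core that Snail proteins bind), searched on both strands.
CD44: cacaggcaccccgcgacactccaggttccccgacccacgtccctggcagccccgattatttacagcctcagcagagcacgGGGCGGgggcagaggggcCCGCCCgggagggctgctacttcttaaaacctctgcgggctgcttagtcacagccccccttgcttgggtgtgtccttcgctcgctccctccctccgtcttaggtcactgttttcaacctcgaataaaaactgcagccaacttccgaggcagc
VIM: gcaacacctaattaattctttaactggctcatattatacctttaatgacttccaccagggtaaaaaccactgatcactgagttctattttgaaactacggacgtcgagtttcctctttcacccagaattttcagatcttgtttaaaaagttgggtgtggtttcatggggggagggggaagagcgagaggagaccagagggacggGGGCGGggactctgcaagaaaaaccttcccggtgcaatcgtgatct
ITGAE: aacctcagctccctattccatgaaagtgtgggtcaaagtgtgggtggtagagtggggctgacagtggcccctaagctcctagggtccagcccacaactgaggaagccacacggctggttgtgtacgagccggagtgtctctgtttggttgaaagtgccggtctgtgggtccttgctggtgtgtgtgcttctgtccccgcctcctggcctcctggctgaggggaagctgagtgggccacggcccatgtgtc
KRT75: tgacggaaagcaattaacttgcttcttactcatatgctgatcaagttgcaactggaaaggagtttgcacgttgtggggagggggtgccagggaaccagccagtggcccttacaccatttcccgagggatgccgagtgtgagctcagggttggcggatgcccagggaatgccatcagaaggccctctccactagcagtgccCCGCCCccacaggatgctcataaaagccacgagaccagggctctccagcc
ITGB6: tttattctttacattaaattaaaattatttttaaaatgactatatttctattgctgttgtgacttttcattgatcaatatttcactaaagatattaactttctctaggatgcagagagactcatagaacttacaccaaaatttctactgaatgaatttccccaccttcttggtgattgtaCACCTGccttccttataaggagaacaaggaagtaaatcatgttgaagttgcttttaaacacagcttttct
The promoter of CD44 holds 2 GC boxes, those of VIM and KRT75 hold 1 each and that of ITGAE holds neither motif, while that of ITGB6 holds 1 E-box. Over all 35116 RefSeq promoters of this length, 17.5% hold the E-box and 42.6% the GC box. For the genes described here, 79 of which matched the table with 107 promoters, 15 promoters (14.0%) hold the E-box and 31 (29.0%) the GC box. Of the 45 promoters whose genes were above background, 9 (20%) hold the E-box and 18 (40%) the GC box. For genes higher on Oct4/GFP (+) than on Nestin/GFP (+), 2 of 10 promoters (20%) hold the E-box and 3 (30%) the GC box. For genes lower in this comparison, 0 of 4 promoters hold the E-box and 3 (75%) the GC box. A match is a run of letters and not a measured binding site. CDH1, SNAI1 and OVOL2 are not in the table.

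Among the integrin alpha subunits, ITGAE, which pairs with beta 7 to bind E-cadherin and is best known from intraepithelial lymphocytes, had the widest range among those seen on every array. Its intensities were 113 in Oct4/GFP (+), 1430 in Nestin/GFP (+), 156 in Oct4/GFP (-) and 1024 in Nestin/GFP (-). The Oct4/GFP arrays were thus low and the Nestin/GFP arrays high as deposited. ITGAE was 5.10-fold lower on Oct4/GFP (+) than on Nestin/GFP (+) (log2 -2.35), and over the 13 alternative settings it stayed past the threshold, between -3.66 and -2.05. Among the 32 differences, the 2 of CD44 also stayed past it in the 12 settings that gave them a value, the other one leaving out its probe. It was 3.05-fold lower on Oct4/GFP (+) than on Oct4/GFP (-) (log2 -1.61), but this dropped to -0.47 as deposited and -0.62 after median centring. The log2 difference was 0.07 for Nestin/GFP (+) over Nestin/GFP (-) and -0.67 for Oct4/GFP (-) over Nestin/GFP (-). ITGB7, which encodes the beta 7 partner, and PTPRC, the leukocyte antigen CD45, were below background on all 4 arrays.

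ITGA6, the laminin-binding alpha 6 subunit, was above background on all 4 arrays at 36 in Oct4/GFP (+), 78 in Nestin/GFP (+), 46 in Oct4/GFP (-) and 103 in Nestin/GFP (-). It was 2.80-fold lower on Oct4/GFP (+) than on Oct4/GFP (-) (log2 -1.49), which dropped to -0.35 as deposited and -0.46 after median centring, and it differed by log2 -0.11 for Oct4/GFP (+) over Nestin/GFP (+). ITGA2, the alpha 2 subunit of the collagen receptor, had 43 in Oct4/GFP (+), 31 in Nestin/GFP (+), 13 in Oct4/GFP (-) and 8 in Nestin/GFP (-), with both GFP (-) arrays below background. It was 2.40-fold higher on Oct4/GFP (+) than on Nestin/GFP (+) (log2 1.27), against 0.47 as deposited and 0.33 after median centring. ITGA4, the alpha 4 subunit that binds fibronectin and VCAM1, passed its limit on Oct4/GFP (-) alone at 6 in Oct4/GFP (+), 12 in Nestin/GFP (+), 21 in Oct4/GFP (-) and -3 in Nestin/GFP (-). It was at least 3.25-fold lower on Oct4/GFP (+) than on Oct4/GFP (-) and at least 3.45-fold higher on Oct4/GFP (-) than on Nestin/GFP (-), from an intensity of 21 against a limit of 13.9, and these came to log2 -0.41 and 0.32 after median centring. ITGA11, ITGAD, ITGA5 and ITGAM were above background on 1 or 2 arrays, at no more than 28, and none was past 2-fold.

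Of the integrin beta subunits, ITGB1, the common partner of many alpha subunits, had 29 in Oct4/GFP (+), 32 in Nestin/GFP (+), 18 in Oct4/GFP (-) and 25 in Nestin/GFP (-). It was 2.37-fold higher on Oct4/GFP (-) than on Nestin/GFP (-) (log2 1.25), a direction that turned to -0.47 as deposited and came to 0.05 after median centring. ITGB6, an epithelial subunit that pairs with alpha v and activates latent transforming growth factor beta, had 61 in Oct4/GFP (+), 7 in Nestin/GFP (+), 30 in Oct4/GFP (-) and 34 in Nestin/GFP (-). The Nestin/GFP (+) array was below its limit and the others were above theirs. ITGAV, which encodes the alpha v partner, was below background on every array. ITGB6 was at least 4.36-fold higher on Oct4/GFP (+) than on Nestin/GFP (+), which fell just short of 2-fold after median centring (log2 0.98) and held as deposited (log2 1.41). It was 3.08-fold higher on Oct4/GFP (-) than on Nestin/GFP (-) (log2 1.62), a direction that turned to -0.18 as deposited. Between the Oct4/GFP populations its log2 difference was 0.00.

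ITGB4, which pairs with alpha 6 in hemidesmosomes, had 2 probes, at 96 in Oct4/GFP (+), 219 in Nestin/GFP (+), 27 in Oct4/GFP (-) and 194 in Nestin/GFP (-) and at 16 in Oct4/GFP (+), 19 in Nestin/GFP (+), 7 in Oct4/GFP (-) and 46 in Nestin/GFP (-). Its log2 difference of Oct4/GFP (+) over Nestin/GFP (+) was 0.03. The second probe was below background on Nestin/GFP (+) and Oct4/GFP (-), where floors of 18.5 and 30.5 entered the gene's mean. The range of this mean over the 4 arrays was 1.55-fold, the narrowest of the 15 genes. The first probe alone ran from log2 6.18 on Oct4/GFP (-) to 7.24 on Nestin/GFP (-), a difference of -1.06 and past 2-fold. For Oct4/GFP (+) over Oct4/GFP (-) the first probe gave log2 0.99. The second probe could not be compared, as the Oct4/GFP (-) floor of 30.5 lay above its normalized 17.25 on Oct4/GFP (+). The gene's mean of 0.08 in this comparison includes that floor. ITGB5, the vitronectin-binding beta 5 subunit, also had 2 probes, at 253 in Oct4/GFP (+), 245 in Nestin/GFP (+), 53 in Oct4/GFP (-) and 177 in Nestin/GFP (-) and at 42 in Oct4/GFP (+), 72 in Nestin/GFP (+), 17 in Oct4/GFP (-) and 162 in Nestin/GFP (-). Their log2 differences were 1.36 and 0.23 for Oct4/GFP (+) over Nestin/GFP (+), 0.05 and -1.45 for Nestin/GFP (+) over Nestin/GFP (-), and 0.15 and -1.59 for Oct4/GFP (-) over Nestin/GFP (-). For Oct4/GFP (+) over Oct4/GFP (-) both probes were higher, at 1.25 and 0.38. The gene's means were 0.79, -0.70 and -0.72 in the first 3 comparisons named and 0.82 in the last, none past 2-fold. ITGB2, the leukocyte beta 2 subunit, reached only 17, on Oct4/GFP (+).

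The cadherins were mostly below background outside CDH2, the N-cadherin of mesenchymal and neural cells. Its intensities were 108 in Oct4/GFP (+), 156 in Nestin/GFP (+), 52 in Oct4/GFP (-) and 155 in Nestin/GFP (-). It differed by log2 0.76 for Oct4/GFP (+) over Nestin/GFP (+), 0.10 for Oct4/GFP (+) over Oct4/GFP (-), -0.36 for Nestin/GFP (+) over Nestin/GFP (-) and 0.30 for Oct4/GFP (-) over Nestin/GFP (-), and none was past 2-fold. CDH18, a cadherin of the nervous system, had 45 in Oct4/GFP (+), 8 in Nestin/GFP (+), 19 in Oct4/GFP (-) and 72 in Nestin/GFP (-). It was below background on Nestin/GFP (+) alone, at least 3.18-fold higher on Oct4/GFP (+) than on Nestin/GFP (+) and at least 2.96-fold lower on Nestin/GFP (+) than on Nestin/GFP (-). The second difference stayed past 2-fold under all 3 other scalings, and the first dropped to log2 0.97 as deposited and 0.65 after median centring. CDH7, CDH11, CDH15 and CDH22 passed the limit on 1 array each, at 21 to 25, and the other 17 cadherins on none.

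Among the claudins, CLDN12 and CLDN10 were above background on every array. CLDN12, unusual among claudins in lacking the usual binding motif at its tail, had 128 in Oct4/GFP (+), 176 in Nestin/GFP (+), 46 in Oct4/GFP (-) and 91 in Nestin/GFP (-) and no difference past 2-fold, with log2 0.83, 0.52, 0.61 and 0.92 over the 4 comparisons in the order above. CLDN10, which forms ion channels between epithelial cells, had 68 in Oct4/GFP (+), 120 in Nestin/GFP (+), 22 in Oct4/GFP (-) and 188 in Nestin/GFP (-). It was 2.49-fold lower on Oct4/GFP (-) than on Nestin/GFP (-) (log2 -1.32), and this stayed past 2-fold under all 3 other scalings. In this comparison 70.3% of all named genes were lower past 2-fold as deposited, and 36.4% after median centring. For Nestin/GFP (+) over Nestin/GFP (-) the log2 difference of CLDN10 was -0.94. A second CLDN10 probe was below background on every array and does not enter these values. At a limit of 2 noise SD the difference of Oct4/GFP (-) from Nestin/GFP (-) was log2 -0.35.

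The other claudins had bounds in most comparisons. CLDN6, a claudin of embryonic epithelia, had 34 in Oct4/GFP (+), 21 in Nestin/GFP (+), 19 in Oct4/GFP (-) and 48 in Nestin/GFP (-) and was at least 2.38-fold higher on Oct4/GFP (+) than on Nestin/GFP (+). CLDN14 had 32 in Oct4/GFP (+), 21 in Nestin/GFP (+), 8 in Oct4/GFP (-) and 52 in Nestin/GFP (-), at least 2.20-fold higher on Oct4/GFP (+) than on Nestin/GFP (+) and at least 2.14-fold lower on Nestin/GFP (+) than on Nestin/GFP (-). Both genes stood at 21 on Nestin/GFP (+), just under its limit of 22.7, so each bound rests on a value close to the limit. Under median centring these differences were log2 0.36 for CLDN6, and 0.30 and -0.68 for CLDN14. A second CLDN14 probe was below background on every array and does not enter these values. At a limit of 2 noise SD the differences of CLDN14 were log2 0.50 and -0.43.

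CLDN5, the claudin of endothelial tight junctions, had 15 in Oct4/GFP (+), 25 in Nestin/GFP (+), 19 in Oct4/GFP (-) and 18 in Nestin/GFP (-). It was at least 2.88-fold lower on Oct4/GFP (+) than on Oct4/GFP (-) and at least 3.06-fold higher on Oct4/GFP (-) than on Nestin/GFP (-). CLDN8, a claudin of the kidney collecting duct, had 21 in Oct4/GFP (+), 18 in Nestin/GFP (+), 21 in Oct4/GFP (-) and 15 in Nestin/GFP (-), equal on both Oct4/GFP arrays as deposited. After normalization it was 2.38-fold lower on Oct4/GFP (+) than on Oct4/GFP (-) (log2 -1.25) and at least 3.45-fold higher on Oct4/GFP (-) than on Nestin/GFP (-). The differences of Oct4/GFP (+) from Oct4/GFP (-) were log2 -0.25 for CLDN5 and 0.00 for CLDN8 as deposited, and all 4 were under 2-fold after median centring. CLDN7 reached 43 on Nestin/GFP (+) and CLDN20 reached 23 on Nestin/GFP (-).

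Of the 51 keratins, 14 were above background anywhere and 3 on every array. KRT10, the suprabasal keratin of the epidermis, was well above the limit in every population, at 148 in Oct4/GFP (+), 315 in Nestin/GFP (+), 45 in Oct4/GFP (-) and 289 in Nestin/GFP (-). Its log2 differences were 0.27, 0.77, -0.32 and -0.82 over the 4 comparisons, none past 2-fold. KRT75, a keratin of the hair follicle, had 22 in Oct4/GFP (+), 124 in Nestin/GFP (+), 19 in Oct4/GFP (-) and 75 in Nestin/GFP (-). It was 3.18-fold lower on Oct4/GFP (+) than on Nestin/GFP (+) (log2 -1.67), which held under all 3 other scalings. It was 2.01-fold lower on Oct4/GFP (+) than on Oct4/GFP (-) (log2 -1.01), and this turned to 0.21 as deposited. KRT80 had 29 in Oct4/GFP (+), 85 in Nestin/GFP (+), 16 in Oct4/GFP (-) and 87 in Nestin/GFP (-) and no difference past 2-fold.

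KRT82, a hair cuticle keratin, passed its limit on Oct4/GFP (-) alone, with 3 in Oct4/GFP (+), 20 in Nestin/GFP (+), 24 in Oct4/GFP (-) and 4 in Nestin/GFP (-). It was at least 3.72-fold lower on Oct4/GFP (+) than on Oct4/GFP (-) and at least 3.95-fold higher on Oct4/GFP (-) than on Nestin/GFP (-), against log2 -0.52 and 0.43 after median centring. The other 10 keratins with a value above background were KRT5, KRT9, KRT15, KRT25, KRT31, KRT33B, KRT34, KRT37, KRT39 and KRT81, of which 8 passed the limit on 1 array. KRT81, another hair keratin, reached 75, the highest of them, with 28 in Oct4/GFP (+), 57 in Nestin/GFP (+), 11 in Oct4/GFP (-) and 75 in Nestin/GFP (-). KRT5, a basal keratin used as a squamous marker, passed on Oct4/GFP (+) alone at 22. Across the 10 keratins that could be compared for Oct4/GFP (+) over Nestin/GFP (+), 0 were higher past 2-fold and 1 was lower, with a median log2 difference of -0.04, where 13.3% of all named genes were higher and 16.1% lower.

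**Figure D4:**
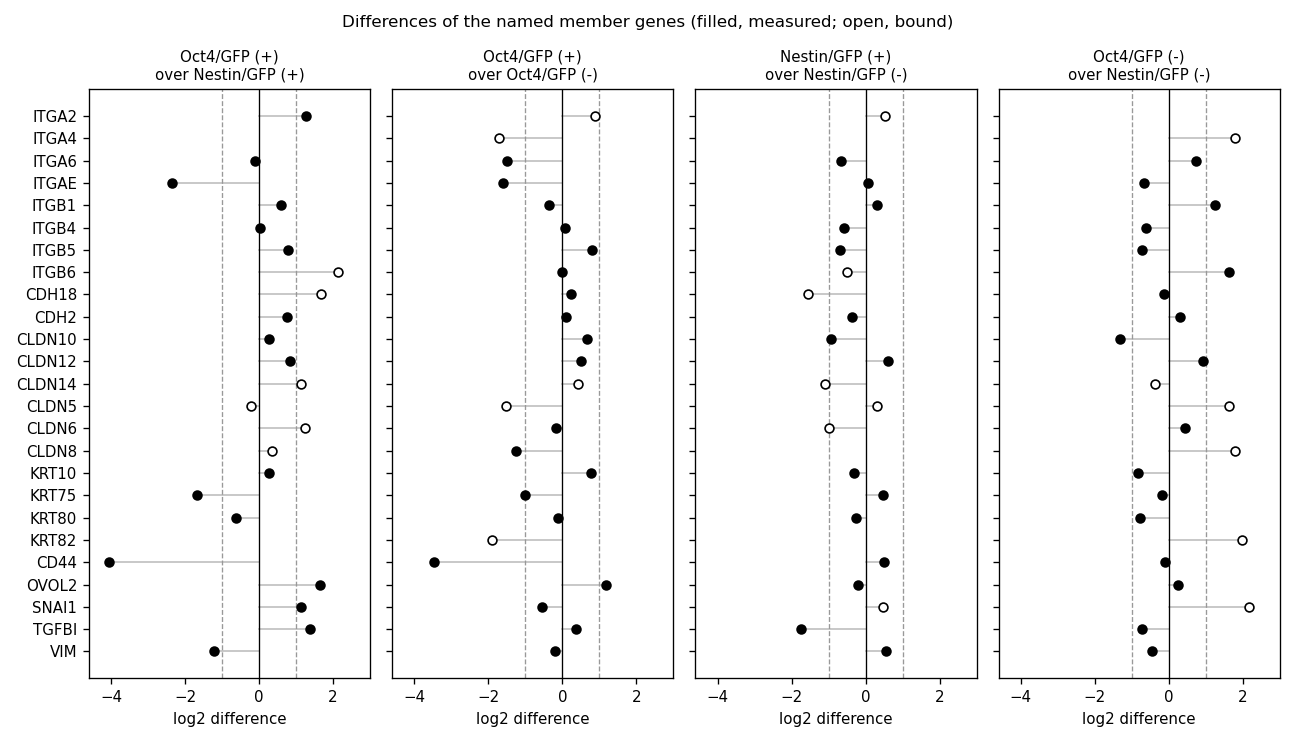
log2 difference (horizontal axis) of the 25 genes named with values, 1 panel per comparison, grouped as integrin alpha, integrin beta, cadherin, claudin, keratin and single genes down the page. Filled circles are measured on both arrays, open circles are bounds, dashed lines mark 2-fold and a missing circle means that no comparison could be made. CD44 lies farthest out, at -4.06 for Oct4/GFP (+) over Nestin/GFP (+) and -3.46 for Oct4/GFP (+) over Oct4/GFP (-).

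For the 15 genes that passed the limit on every array, the median range between the lowest and highest array was 1.32 on the log2 scale, against 1.07 over all 2853 named genes so measured. The range passed 2-fold for 10 of the 15 (66.7%), against 54.6% of the 2853. The lowest array was Oct4/GFP (+) for 6 of the 15 (23.9% of the 2853), Nestin/GFP (+) for 3 (26.6%), Oct4/GFP (-) for 4 (23.9%) and Nestin/GFP (-) for 2 (25.6%). The highest array was Oct4/GFP (+) for 4 (30.1% of the 2853), Nestin/GFP (+) for 4 (20.4%), Oct4/GFP (-) for 2 (29.7%) and Nestin/GFP (-) for 5 (19.8%). For CD44, ITGAE, KRT75 and VIM the lowest after normalization was Oct4/GFP (+) and the highest Nestin/GFP (+). As deposited, Oct4/GFP (-) was instead the lowest for VIM (140, against 267 in Oct4/GFP (+)) and for KRT75 (19, against 22).

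Partners of these proteins were read from 6 lists of other genes, in which 28 differences were past 2-fold and 6 of those stayed so under all 3 other scalings. Of the integrin adaptors and linkers, 12 of 17 had a probe and 9 were above background. PXN (paxillin, a scaffold of focal adhesions) had 37 in Oct4/GFP (+), 174 in Nestin/GFP (+), 34 in Oct4/GFP (-) and 47 in Nestin/GFP (-). As deposited the Nestin/GFP (+) array was the highest, but after normalization Oct4/GFP (-) lay close to it. Paxillin was 2.16-fold lower on Oct4/GFP (+) than on Nestin/GFP (+) (log2 -1.11) and 2.94-fold higher on Nestin/GFP (+) than on Nestin/GFP (-) (log2 1.55), both kept under every scaling. TLN1 (talin, which activates integrins) was also lower on Oct4/GFP (+) than on Nestin/GFP (+) (log2 -1.03), with -0.77 under the third scaling. For Oct4/GFP (+) over Oct4/GFP (-), 0 of 7 were higher and 2 lower, PTK2 (focal adhesion kinase, log2 -1.44) and VCL (vinculin, just past 2-fold), where none was lower as deposited or after median centring. Over all named genes 10.6% were higher and 19.5% lower in this comparison. For Oct4/GFP (-) over Nestin/GFP (-), 5 of 8 were higher and 0 lower, namely ZYX, PXN, PARVA, CIB1 and ITGB1BP1 at log2 1.06 to 1.45, where 21.2% of all named genes were higher and 12.4% lower. As deposited this became 0 higher and 4 lower of 9 (70.3% of all named genes lower), and after median centring 0 and 2 of 9 (36.4% lower), so the direction of this list was not kept.

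Of 14 regulators of epithelial-mesenchymal transition outside the genes chosen, 11 had a probe and 3 were above background. ZEB1, ZEB2 and TWIST1, activators of the transition, were above it on none of the arrays. TGFBR2, a receptor of transforming growth factor beta, had 77 in Oct4/GFP (+), 32 in Nestin/GFP (+), 34 in Oct4/GFP (-) and 77 in Nestin/GFP (-). It was 4.55-fold higher on Oct4/GFP (+) than on Nestin/GFP (+) (log2 2.19) and 2.44-fold lower on Nestin/GFP (+) than on Nestin/GFP (-) (log2 -1.29), against 0.95 and -0.83 after median centring. TGFB2, a ligand of that receptor, was above background on Nestin/GFP (-) alone, at 61, and at least 2.49-fold lower on Nestin/GFP (+) than on Nestin/GFP (-), with log2 -0.86 after median centring.

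Junction partners were mostly below background. Of 18 adherens junction and desmosome genes with a probe, 4 were above it, and CTNNB1 (beta catenin, which ties cadherins to actin) was not among them. PKP4, a plakophilin, was at least 2.29-fold lower on Oct4/GFP (+) than on Nestin/GFP (+), with log2 -0.85 under the third scaling. A second PKP4 probe was below background on every array and does not enter these values. JUP (plakoglobin, a desmosome linker) was at least 2.46-fold lower on Oct4/GFP (+) than on Oct4/GFP (-) (log2 -0.25 after median centring) and 2.02-fold higher on Oct4/GFP (-) than on Nestin/GFP (-), the second turning to log2 -0.67 as deposited and -0.06 after median centring. Of 9 tight junction partners with a probe, 7 were above background. JAM2, a junctional adhesion molecule, was at least 2.59-fold higher on Oct4/GFP (+) than on Oct4/GFP (-), which was kept under every scaling. A second JAM2 probe was below background on every array and does not enter this value. TJP1 (ZO-1, the scaffold that binds claudins) was at least 2.12-fold higher on Oct4/GFP (-) than on Nestin/GFP (-), with log2 0.07 after median centring.

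Of 17 matrix ligands with a probe, 5 were above background. LAMA5, the alpha 5 chain of laminin, had 83 in Oct4/GFP (+), 205 in Nestin/GFP (+), 21 in Oct4/GFP (-) and 220 in Nestin/GFP (-). It was 3.09-fold lower on Oct4/GFP (-) than on Nestin/GFP (-) (log2 -1.63), which was kept under every scaling. All named genes shifted in this direction as deposited and after median centring. LAMA5 was also higher on Oct4/GFP (+) than on Oct4/GFP (-) (log2 1.11), with 0.97 under the third scaling. LAMB3, a laminin chain of basement membranes, was higher on Oct4/GFP (-) than on Nestin/GFP (-) (log2 1.59), but -0.41 as deposited. SPP1 (osteopontin, a ligand of alpha v integrins) passed the limit on Oct4/GFP (-) alone, at 31. It was at least 4.88-fold lower on Oct4/GFP (+) than on Oct4/GFP (-) and at least 5.18-fold higher on Oct4/GFP (-) than on Nestin/GFP (-), against log2 -0.76 and 0.67 after median centring.

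Among other intermediate filaments, LMNA (lamin A/C of the nuclear lamina) had 7 in Oct4/GFP (+), 109 in Nestin/GFP (+), 17 in Oct4/GFP (-) and 64 in Nestin/GFP (-). It was at least 4.06-fold lower on Oct4/GFP (+) than on Nestin/GFP (+), which was kept under every scaling, and at least 2.46-fold lower on Oct4/GFP (+) than on Oct4/GFP (-), with log2 -0.25 after median centring. INA (internexin, a neuronal filament) had 34 in Oct4/GFP (+), 215 in Nestin/GFP (+), 24 in Oct4/GFP (-) and 130 in Nestin/GFP (-). It was 2.87-fold lower on Oct4/GFP (+) than on Nestin/GFP (+) (log2 -1.52), also kept under every scaling. DES (desmin, the muscle filament) was at least 3.88-fold lower on Oct4/GFP (+) than on Oct4/GFP (-) and at least 4.12-fold higher on Oct4/GFP (-) than on Nestin/GFP (-), against log2 -0.56 and 0.47 after median centring.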

How the data were processed

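Values were taken from 1 table in which the authors deposited linear, background-subtracted intensity values of 30968 probes for 4 Cy3 arrays (Phalanx Human OneArray), 1 per population. Software, scaling and filter were not given in the sources used here. Groups came from the sample titles, and gene symbols from the platform annotation, with 122 of 123 symbols current in RefSeq and KRT222P matched by synonym. The sources name no genome build for the array.

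The noise SD of an array was taken as the root mean square over its negative values, and the background limit as 3 of these. All probes were quantile normalized over the 4 arrays, with ties given their mean rank, and values below background were set to a floor, the smallest normalized value that passed the limit of the array (17.25 for Oct4/GFP (+), 18.5 for Nestin/GFP (+), 30.5 for Oct4/GFP (-) and 16.25 for Nestin/GFP (-)), before log2 was taken. A gene's level was the mean over those of its probes that passed the limit somewhere. A gene counted as past 2-fold where its log2 difference or bound was above 1 or below -1. No test was made, as each population has 1 array, and their number limits the precision.

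Genes named with values were the 6 single genes, the family members above background on all 4 arrays and those past 2-fold in any comparison. The members and all lists were chosen with earlier results of these data known. Alternatives were values as deposited, 2 centrings, no limit but an offset of 50, limits of 2, 5 or 10 noise SD, no bounds, the brightest probe, single probes, thresholds of 1.5-fold or 4-fold, and leaving out probes over 8-fold apart on 1 array. The steps were tested on simulated data. Python 3.11.15 with numpy 2.4.6, pandas 2.3.3 and matplotlib 3.10.9 was used.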

Additional observations from a re-analysis of the deposited data

Results flagged for a closer look

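For 5 genes, GFP (+) over GFP (-) had opposite signs in the Oct4/GFP and the Nestin/GFP populations, with at least one of the differences past 2-fold. The smaller difference of each was below the SD between probes of one gene (0.85 for the Oct4/GFP pair, 0.54 for the Nestin/GFP pair). Opposite changes thus cannot be told apart from a change in only 1 line. With 1 array per population the difference between the lines was not tested. CD44 had a log2 difference of -3.46 in the Oct4/GFP populations and 0.50 in the Nestin/GFP populations, which are -3.96 apart. ITGAE had -1.61 and 0.07, -1.67 apart. KRT75 had -1.01 and 0.47, -1.48 apart. OVOL2 had 1.19 and -0.21, 1.40 apart. TGFBI had 0.36 and -1.74, 2.10 apart.

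These are 5 of the 15 member genes above background on all 4 arrays (33.3%), against 440 of 2853 named genes (15.4%). The signs stayed opposite for 4 of the 5 on values as deposited, where KRT75 was at 0.21 and 0.73, and for 4 of the 5 after median centring, where OVOL2 was at 1.28 and 0.10. For CD44, ITGAE and TGFBI they stayed opposite under all 3 other scalings, but neither ITGAE difference was past 2-fold as deposited (-0.47 and 0.48) or after median centring (-0.62 and 0.60).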

How the results depend on the processing

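Counts of genes past 2-fold and their median log2 differences are given for Oct4/GFP (+) over Nestin/GFP (+) (A), Oct4/GFP (+) over Oct4/GFP (-) (B), Nestin/GFP (+) over Nestin/GFP (-) (C) and Oct4/GFP (-) over Nestin/GFP (-) (D), and results not mentioned here stayed within 1.5 times the count, or within 1 standard error across genes of the median. The counts were 12, 9, 3 and 8, and the medians 0.35, 0.04, -0.24 and -0.10. As deposited, C had 5 genes and D 18, with medians of -0.53, 0.84, -0.0071 and -1.31. Median centring gave 6 genes in A, 5 in B and 13 in D, with medians of -0.36, 0.31, 0.13 and -0.62. Centring on probes that pass the limit everywhere gave A a median of 0.68, and the brightest probe gave D 0.15. A limit of 2 noise SD gave C 6 genes and D 14 with a median of 0.72, a limit of 5 gave B 4, C 1 and D 4, and a limit of 10 gave 5, 2, 1 and 0. An offset of 50 without a limit gave 4, 3, 1 and 3 genes, with medians of 0.00 in A and C. Without bounds, C had 1 gene and D 3. At 1.5-fold A had 20 genes, C 9 and D 17, and at 4-fold the counts were 3, 1, 0 and 1. Leaving out probes apart on 1 array changed no count by over 1.5 times.

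The single-gene directions that turned on values as deposited were KRT75 in B (0.21), ITGB1 in D (-0.47) and ITGB6 in D (-0.18). Over 369 alternative values of 32 gene differences, 266 stayed past the threshold, 100 did not and 3 turned. The cause was not tested. No paired analysis was possible for these differences because each comes from 2 arrays and no test, and the populations share 1 replicate number only. A fit over both lines with the line as a block was not made. Signal over background limits most claudins, cadherins and keratins, with exceptions such as CDH2, CLDN12, CLDN10 and KRT10.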
